A study of Arabidopsis thaliana with 90 samples.

Results

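E2FA bound 1088 regions of the Arabidopsis thaliana nuclear chromosomes that carried neither a BTE1 region nor a region of Ser2-phosphorylated RNA polymerase II (Ser2P). They were selected on measured values, as the regions of the E2FA list deposited for the whole series that shared not 1 base with the BTE1 list or the Ser2P list, and they made up 33.9% of the 3213 E2FA regions on chromosomes 1 to 5. The other E2FA regions were 988 without BTE1 that overlapped Ser2P, called here the E2FA-only regions in Ser2P chromatin, and 1137 that overlapped BTE1, of which 230 also overlapped Ser2P. E2FA, BTE1 and Ser2P chose these groups, so values of these 3 features, the positions of E2FA summits included, are given as description. The peaks of the BTE1 libraries and list carry the name UCP1 in the deposited files and were taken as BTE1 by their labels.

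E2FA is a transcription factor of the E2F family that works with a DP partner and is best known for switching on genes of DNA replication and cell cycle entry. BTE1 belongs to the DREAM complex, a multi-protein assembly built around E2F and MYB-type DNA-binding subunits that sets cell cycle genes on or off. RNA polymerase II (Pol II) carries Ser5 phosphorylation (Ser5P) mainly at initiation and early transcription, and Ser2 phosphorylation as it elongates through the gene. WDR5A is a core subunit of the COMPASS complexes that methylate lysine 4 of histone H3, H3K4me3 marks the 5′ part of transcribed genes, and the histone variant H2A.Z sits in nucleosomes beside their starts. TBP, the TATA-binding protein, serves initiation by Pol II and also by RNA polymerase III, which transcribes tRNA genes.

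All values except those of TBP came from wild-type Col-0 seedlings, harvested whole at 9 days after growth in continuous white light, with 3 biological replicate libraries for each feature. The WDR5A-HA libraries were precipitated through an HA tag, their genotype was given as Col-0, and the promoter driving the tagged protein was not given in the sources used here. TBP was a single wild-type list with no replicates and no sample of its own, so plant age and growth conditions were not given for it here. Mutant libraries were not analysed here. Whole seedlings mix cell types, so that binding in few cells and weak binding in many cannot be told apart. Depth per library was unknown, because peak lists carry no number of reads. E2FA library 2 had 3592 peaks, against 4549 and 5852 in libraries 1 and 3.

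Peaks of single libraries touched few of the 1088 regions for Ser2P and more for BTE1. A Ser2P peak of any library touched 36 of them (3.31%). A BTE1 peak of any library touched 250 of them (23.0%), with 7.08%, 3.40% and 12.5% in libraries 1, 2 and 3. These were BTE1 peaks that the deposited BTE1 list does not hold. They touched 77, 37 and 136 regions, which make up the 250, so no member had a BTE1 peak in more than 1 library. The same held for Ser2P, with 3, 19 and 14 regions. Members were chosen for lack of listed BTE1 and Ser2P regions, so neither is a separate result. The gap to the nearest Ser2P or BTE1 region had a median of 2420 bp and ran from 3 to 443020 bp, and it was under 500 bp for 112 regions (10.3%).

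E2FA fold and the share of regions with a peak in all 3 E2FA libraries lay between those of the other groups. Libraries 1, 2 and 3 had an E2FA peak on 85.9%, 67.7% and 93.6% of the 1088 regions. The median E2FA fold enrichment of these peaks, the authors' value over the peak caller's background, was 2.69, 2.42 and 2.80 (mean 2.64 ± 0.199, SD, n = 3). The E2FA-only regions in Ser2P chromatin had a mean of 2.04 ± 0.0290, and the regions with BTE1 4.41 ± 0.639. A peak in all 3 E2FA libraries was found for 513 regions (47.2%), against 19.7% of E2FA-only regions in Ser2P chromatin and 83.9% of regions with BTE1, where 51.7% of all E2FA regions had one. The other 575 of the 1088 regions had a peak in exactly 2 libraries. Library 2 had a peak on 32.2% of the E2FA-only regions in Ser2P chromatin, where libraries 1 and 3 had one on 91.4% and 96.2%. E2FA peaks were called at a p-value of 0.01, but between 90.6% and 96.8% of the peaks on the 1088 regions also reached a q-value of 0.05.

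The 12 strongest of the 1088 regions are given by nearest protein-coding gene, with TAIR10 positions, and none of these genes was in the cell cycle lists described further on. The region at WNK3 (AT3G48260), a kinase of the WNK family, at chromosome 3, 17875084 to 17876215, had E2FA folds of 14.1, 14.6 and 14.0 in libraries 1, 2 and 3. It was the highest of these 12 and the most even across libraries, and its summit lay 9 bp outside the annotated gene end. The region near AT5G65400 (chromosome 5, 26133867 to 26134570) had folds of 12.8, 6.93 and 17.0, and that near AT5G58610 (chromosome 5, 23691117 to 23692199) 10.4, 9.22 and 15.6. Both spread widely, with library 2 lowest.

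HAI3 (AT2G29380) encodes a protein phosphatase 2C induced by abscisic acid, and its region (chromosome 2, 12608156 to 12608717) had folds of 9.68, 6.87 and 10.9. The region of UGT71C2 (AT2G29740), a UDP-glucosyltransferase gene, had 8.91, 6.68 and 11.7 (chromosome 2, 12707713 to 12708426). The region of AT3G19274 had 9.82, 4.85 and 12.2 (chromosome 3, 6678384 to 6679067). In these 3 regions library 2 was again the lowest and library 3 the highest.

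A pair of genes of chloroplast proteins followed. ACDO1 (AT4G31390), an ABC1-like kinase gene, had folds of 10.8, 7.91 and 8.03 (chromosome 4, 15232547 to 15233253). PSB28 (AT4G28660), which encodes a photosystem II protein, had 6.35, 7.69 and 12.4 (chromosome 4, 14149637 to 14150270). The other four of the 12 strongest were near TPPH (AT4G39770), a trehalose-6-phosphate phosphatase gene, AT3G32040, AT5G24000 and BRG2 (AT1G79110), a BOI-related gene, with mean folds between 8.37 and 8.65 over 3 libraries.

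These 12 regions did not share 1 chromatin setting. The E2FA summit lay outside protein-coding genes in 8 of them and inside in 4, where 50.5% of all members had it inside. An H2A.Z peak was present in all 3 libraries at 8 of the 12, a WDR5A-HA peak at 6 and an H3K4me3 peak at 4. Peaks of a single library overlapped on average 67.9%, 52.0% and 54.5% of all members for these features. The shares of all members with these peaks in all 3 libraries were not counted. A Ser5P peak was absent from all 3 libraries at 7 of the 12, and the rest had one in at least 1 library. For comparison, Ser5P peaks of libraries 1, 2 and 3 overlapped 16.1%, 22.2% and 22.9% of all members. The share of all members with a Ser5P peak in any library was not counted. A BTE1 peak in exactly 1 library touched 7 of the 12 and none had more, against 23.0% of all members with a BTE1 peak in any library. These differences were not tested.

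**Figure D1:**
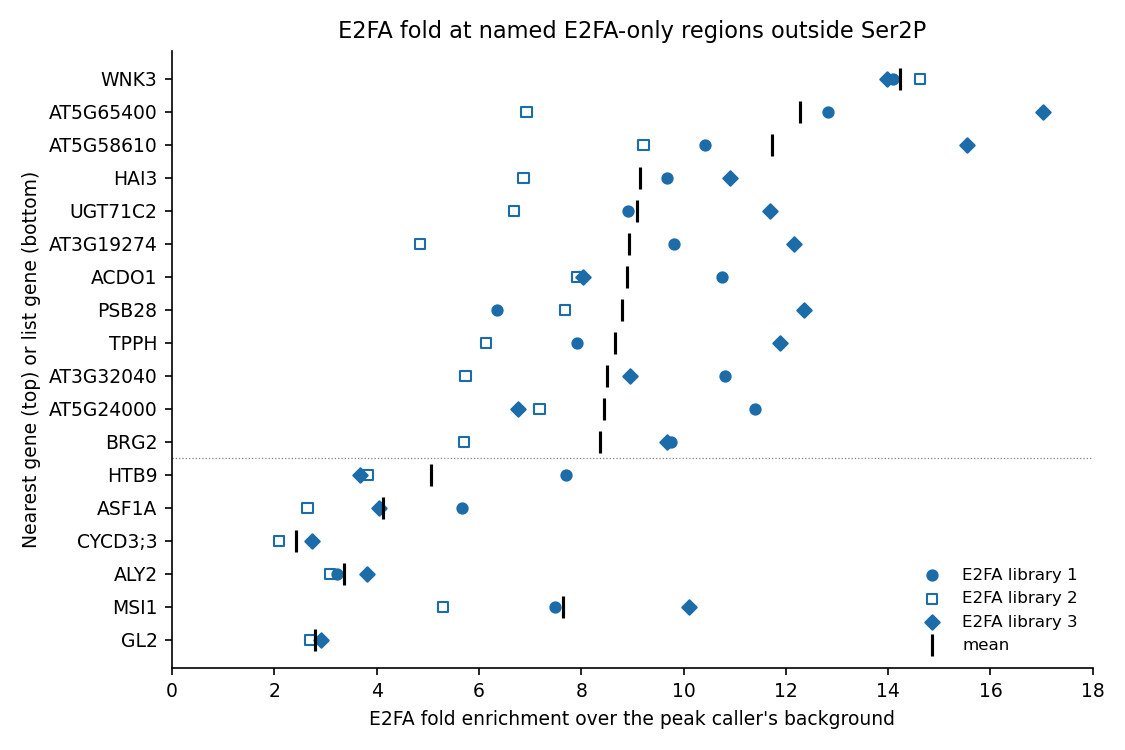
E2FA fold enrichment over the peak caller's background (horizontal axis) at the 12 strongest regions, named by nearest gene (above the dotted line), and at the 6 regions beside genes of the lists (below it). Each symbol is 1 of 3 libraries and the vertical tick is their mean; library 2 is the lowest in 9 of the 12 strongest regions, and CYCD3;3 and GL2 have no library 1 peak.

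Some genes of the cell cycle, the best-known E2F targets, lay beside the 1088 regions. Members were chosen without BTE1, and regions with BTE1 stood at many of these genes, so the counts are a description. Of 160 genes in 7 lists of DNA replication, histones, DNA repair, chromatin replication, mitosis, G1/S control and DREAM subunits, 5 (3.13%) had such a region within 500 bp of an end. E2FA-only regions in Ser2P chromatin stood at 4 of the same genes (2.50%) and regions with BTE1 at 97 (60.6%). Over all 27444 protein-coding genes the shares were 4.53%, 5.84% and 6.0%, so the members' share of these lists was near its background. None of 28 replication genes, 19 repair genes or 29 mitosis genes had a member region. In 7 lists of other functions, 1 of 124 genes (0.807%) had a member region, against 8 (6.45%) for E2FA-only regions in Ser2P chromatin and 6 (4.84%) for regions with BTE1.

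The 5 cell cycle and chromatin genes were HTB9, ASF1A, CYCD3;3, ALY2 and MSI1. MSI1 (AT5G58230), a histone-binding protein of chromatin assembly factor 1 and Polycomb complexes, had the strongest E2FA among them, with folds of 7.49, 5.30 and 10.1 (chromosome 5, 23555840 to 23556457). HTB9 (AT3G45980) encodes a histone H2B, and its region (chromosome 3, 16897903 to 16898449) had 7.70, 3.82 and 3.68. ASF1A (AT1G66740) encodes a histone H3-H4 chaperone, and its region had 5.67, 2.65 and 4.05 (chromosome 1, 24892022 to 24892672). Library 1 was above the others at HTB9 and ASF1A, and library 3 at MSI1.

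ALY2 (AT3G05380), a DREAM subunit gene related to animal LIN9, had E2FA folds of 3.22, 3.09 and 3.80 (chromosome 3, 1539217 to 1539787). CYCD3;3 (AT3G50070), a D-type cyclin gene, had no peak in library 1 and folds of 2.09 and 2.74 in libraries 2 and 3 (chromosome 3, 18566745 to 18567145). All of these genes except CYCD3;3 had a BTE1 peak in 1 library, the most that any member had. Its fold was 3.17 for HTB9, 3.96 for ASF1A, 3.31 for ALY2 and 2.95 for MSI1. The sixth list gene was GL2 (AT1G79840), a homeobox regulator of epidermal hair fate, with E2FA folds of 2.69 and 2.91 in libraries 2 and 3 and no BTE1 peak (chromosome 1, 30036359 to 30036939).

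In H2A.Z, H3K4me2 and H3K4me3 the 1088 regions lay between the other E2FA regions. H2A.Z peaks of libraries 1, 2 and 3 overlapped 68.7%, 67.4% and 67.7% of them (mean 67.9 ± 0.677%, SD, n = 3). The mean was 37.9 ± 0.464% for the E2FA-only regions in Ser2P chromatin, and regions with BTE1 had 90.3%, 90.3% and 89.4%. The 3 groups did not overlap in any library. The H2A.Z share thus differed by 30.0 ± 0.225 percentage points from the regions in Ser2P chromatin and by -22.1 ± 0.731 from those with BTE1 (SD of the difference within libraries, n = 3). In the deposited H2A.Z list the members' share was 69.0%, beside 67.6% of all E2FA regions.

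H3K4me2 peaks overlapped 49.9 ± 1.34% of the 1088 regions, against 26.2%, 26.8% and 27.9% of E2FA-only regions in Ser2P chromatin in the 3 libraries and 82.8 ± 0.636% of regions with BTE1 (mean ± SD, n = 3). H3K4me3 peaks overlapped 54.5 ± 0.554%, against 37.3 ± 0.202% and 70.1 ± 1.60% of the same groups (n = 3). H3K4me1, a mark of transcribed gene bodies, was rare at 1.84 ± 0.401%, against 7.25 ± 0.499% and 4.75 ± 0.999% (n = 3). The members' shares of the deposited lists were 53.3% for H3K4me2, 55.0% for H3K4me3 and 2.39% for H3K4me1, beside 57.5%, 55.3% and 6.1% of all E2FA regions.

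WDR5A-HA separated the groups in another way. Its peaks overlapped 52.0 ± 2.12% of the 1088 regions, against 74.7 ± 2.57% of E2FA-only regions in Ser2P chromatin and 52.4 ± 2.90% of regions with BTE1 (n = 3). The share was 51.8%, 50.0% and 54.2% in libraries 1, 2 and 3 at the 1088 regions and 52.4%, 49.5% and 55.3% at regions with BTE1, so these groups overlapped. With peaks required to cover at least 0.5 of the region they no longer overlapped, at 43.1% of members and 35.1% of regions with BTE1, and the exact permutation p was then 0.1. The difference, members minus regions with BTE1, was then 7.99 percentage points. With an overlap of at least 1 bp, as in the shares above, it was -0.397 ± 0.804 percentage points (SD within libraries, n = 3). The deposited list gave 53.1% for the members, beside 59.9% of all E2FA regions.

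For 9 of these 10 comparisons every library of one group lay on the same side of every library of the other. An exact two-sided permutation test of 3 against 3 libraries gave p = 0.1 for each of the 9, which is the smallest it can give, and a Benjamini-Hochberg adjusted p of 0.111 over 10 shares. The exact permutation test for WDR5A-HA against regions with BTE1 gave p = 0.8. No comparison could therefore pass 0.05 in this design, although the differences other than that one exceeded the spread between libraries.

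Some of these differences depended on which E2FA regions were kept. Among regions with an E2FA peak in all 3 libraries, H2A.Z covered 70.6% of members and 56.2% of regions in Ser2P chromatin, a difference of 14.3 percentage points. H3K4me2 then differed by 8.65 points and H3K4me3 by 4.99 points in the same direction. Against regions with BTE1, the H3K4me3 difference turned to 5.52 points when only peaks at or above their library's median score were used. The H3K4me1 difference from regions with BTE1 turned to 0.863 points when peaks had to cover at least 0.5 of the region. The median width was 456 bp for the 1088 regions, 502 bp for those in Ser2P chromatin and 663 bp for those with BTE1, and the part of width in the shares was not tested beyond these settings.

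**Figure D2:**
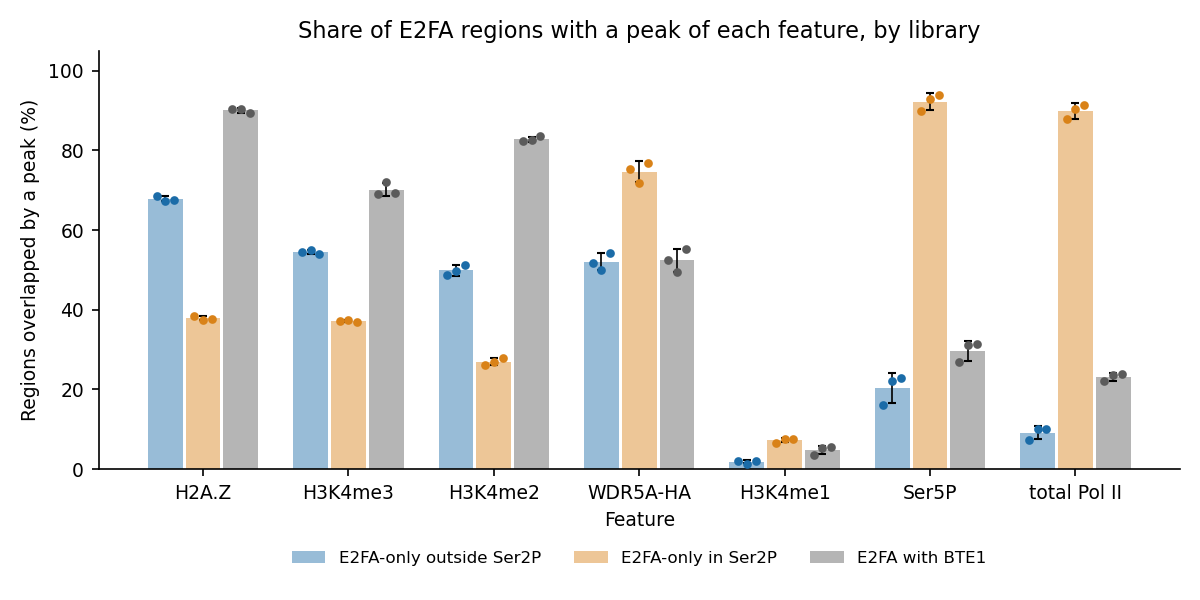
Percent of E2FA regions (vertical axis) overlapped by a peak of each feature, for E2FA-only regions outside Ser2P (1088), E2FA-only regions in Ser2P (988) and E2FA regions with BTE1 (1137). Bars are means, error bars the SD and points the 3 libraries; the regions outside Ser2P lie between the others for H2A.Z, H3K4me3 and H3K4me2 and lowest for H3K4me1, Ser5P and total Pol II, whose values follow in part from the choice by Ser2P.

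Where H2A.Z or H3K4me3 was present, its height differed between the groups. The median H2A.Z fold on the 1088 regions was 4.47 ± 0.0820, against 4.08 ± 0.0148 in Ser2P chromatin (mean of library medians ± SD, n = 3) and 4.92 to 5.07 with BTE1, while all H2A.Z peaks had 3.44 ± 0.00208. H3K4me3 was lowest with BTE1, having 7.04 ± 0.310 at members, 6.76 ± 0.394 in Ser2P chromatin and 5.85 ± 0.330 with BTE1, beside 6.81 ± 0.291 for all peaks. WDR5A-HA had 2.44 ± 0.0243 at members, near the 2.39 ± 0.0347 of all its peaks. Ser5P peaks were low at members, at 2.65 ± 0.0996, against 4.04 ± 0.0442 in Ser2P chromatin and 3.07 ± 0.00608 with BTE1.

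Pol II was sparse at the regions; it is the enzyme that Ser2P marks, so its values are a description. Ser5P peaks overlapped 16.1%, 22.2% and 22.9% of the 1088 regions in libraries 1, 2 and 3, against 92.2 ± 2.12% in Ser2P chromatin and 29.7 ± 2.52% with BTE1 (mean ± SD, n = 3). Total Pol II peaks overlapped 9.16 ± 1.65%, against 89.9 ± 1.90% and 23.2 ± 0.991%. The deposited lists covered 21.0% of members for Ser5P and 9.84% for total Pol II, beside 46.8% and 39.9% of all E2FA regions. The TBP list covered 393 members (36.1%), against 89.0% in Ser2P chromatin and 38.5% with BTE1, beside 53.2% of all E2FA regions. TBP was thus listed at more members than Ser5P was, as it was over all E2FA regions. The TBP list is also the longer, with 16038 regions against 12251 for Ser5P, and it holds no library values to set an error by.

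The 1088 regions lay less often at genes than other E2FA regions did, which is given as a description, since E2FA and Ser2P, a feature of gene bodies, chose the regions. E2FA summits of libraries 1, 2 and 3 fell within 500 bp of a protein-coding gene end in 72.4%, 73.1% and 73.4% of cases (mean 73.0 ± 0.545%, SD, n = 3). The mean was 88.9 ± 0.979% for regions in Ser2P chromatin and 89.9 ± 0.338% for regions with BTE1. Summits lay inside a gene in 50.3 ± 1.31% of cases, against 68.1 ± 0.971% and 57.9 ± 0.497% (n = 3). The libraries did not overlap in any of these 4 comparisons. Without E2FA library 2 the members' shares were 72.9% and 49.7%, and the differences kept their sign. By region, 72.6% of members had their median summit near a gene end and 50.5% inside a gene, beside 83.7% and 58.1% of all E2FA regions.

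Only 28 members (2.57%) lay in gene-poor 500 kb stretches, against 26 in Ser2P chromatin (2.63%) and 17 with BTE1. The reference has no strand, so starts and ends of genes were not separated. The position of the highest-scoring summit of each feature within 1000 bp of the E2FA summit was instead read as towards the gene body or away from it, for the 790 members within 500 bp of a gene end. The H2A.Z summit lay a median of 222 ± 5.51 bp on the gene side, the H3K4me3 summit 250 ± 4.93 bp and the H3K4me2 summit 394 ± 6.90 bp (mean of library medians ± SD, n = 3). H2A.Z was on the gene side in 79.1% to 79.5% of cases. WDR5A-HA summits scattered to both sides of E2FA, with a signed median of 17.2 ± 2.02 bp and a median distance to either side of 145 ± 7.25 bp. Ser5P had a summit in reach at 176 to 237 of the 790 members, with a signed median of -53.5 ± 17.0 bp, away from the gene, and a median distance of 155 ± 20.5 bp. The median distance to either side was 289 ± 2.65 bp for H2A.Z, 320 ± 5.3 bp for H3K4me3 and 484 ± 2.02 bp for H3K4me2.

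The signed medians thus ran from Ser5P and WDR5A-HA to H2A.Z, H3K4me3 and, deepest in the gene, H3K4me2. They had the same order at regions with BTE1. In Ser2P chromatin H2A.Z, H3K4me3 and H3K4me2 kept this order. Ser5P at -1.33 ± 4.93 bp and WDR5A-HA at -3.67 ± 3.51 bp were not separated there. At regions with BTE1 H2A.Z lay at 211 ± 4.36 bp, H3K4me3 at 216 ± 1.73 bp and H3K4me2 at 262 ± 6.66 bp, so the H3K4me2 summit was farther from E2FA at members than at regions with BTE1 by more than the library spread. In Ser2P chromatin H2A.Z lay at 111 ± 10.7 bp, H3K4me3 at 184 ± 5.63 bp and H3K4me2 at 299 ± 7.08 bp, and 52.8 ± 1.02% of H2A.Z summits were on the gene side. Offsets were not tested.

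**Figure D3:**
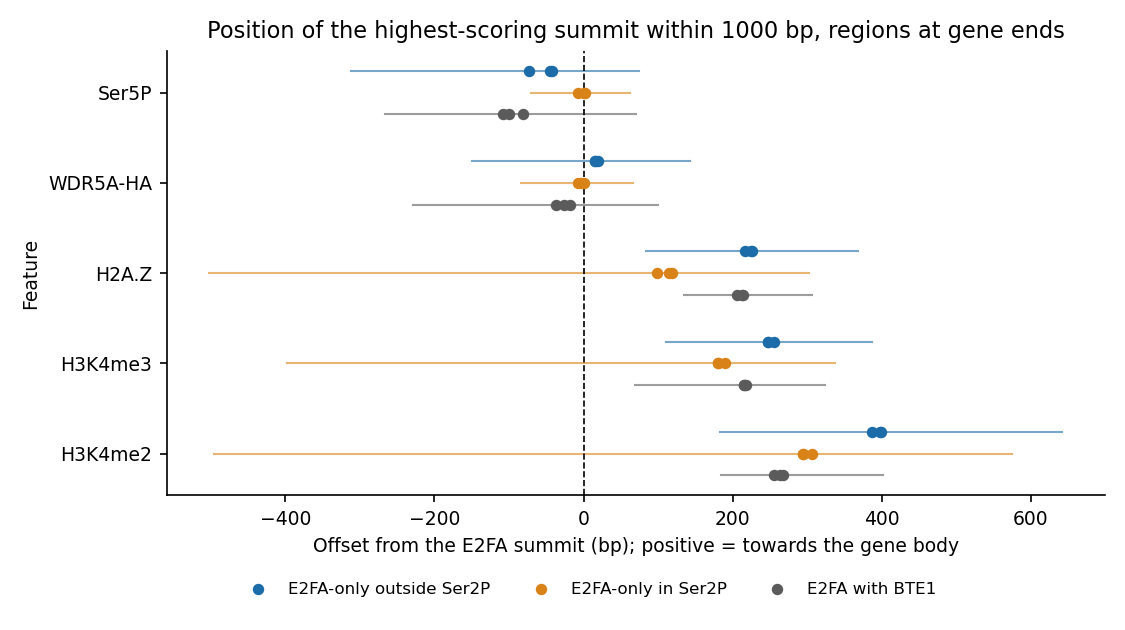
Offset in bp of the highest-scoring summit of each feature within 1000 bp of the E2FA summit, positive towards the gene body, for regions whose E2FA summit lies within 500 bp of a gene end. Points are the medians of 3 libraries and lines span the mean 25th to 75th percentile; at E2FA-only regions outside Ser2P (upper row of each feature) the H2A.Z, H3K4me3 and H3K4me2 medians lie at 222, 250 and 394 bp, and WDR5A-HA at 17.2 bp.

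The regions fell into 4 classes by the deposited lists of H2A.Z, H3K4me2, H3K4me3 and WDR5A-HA. These classes were drawn with the values known and are described without tests. All 3 histone features were present at 488 regions (44.9%), 1 or 2 of them at 287 (26.4%), WDR5A-HA alone at 114 (10.5%) and none of the 4 at 199 (18.3%). The median E2FA fold was lowest where all 3 were present and highest where none was, in every library, by a small margin. It was 2.75, 2.54 and 2.91 in libraries 1, 2 and 3 with none, and 2.62, 2.34 and 2.73 with all 3. The mean of library medians was 2.68 ± 0.216 with 1 or 2 and 2.63 ± 0.174 with WDR5A-HA alone (SD, n = 3).

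The regions with all 3 histone features sat at genes. Their E2FA summit was inside a gene in 72.5% and within 500 bp of an end in 90.6%, with a median distance of 108 bp. WDR5A-HA was listed at 67.6% of them and TBP at 37.7%, and Ser5P peaks overlapped 20.4 ± 3.96% (n = 3). ACDO1, PSB28, UGT71C2, AT5G24000, MSI1, ALY2, ASF1A and CYCD3;3 belong here. At MSI1 the H3K4me3 folds were 9.46, 8.97 and 8.25 and the H2A.Z folds 3.94, 3.65 and 3.22, with no Ser5P peak in any library. At ALY2 the H2A.Z folds were 7.71, 7.21 and 7.67 and the H3K4me3 folds 5.37, 5.21 and 5.49, and Ser5P was again without a peak. CYCD3;3 had all 3 histone features and also Ser5P peaks at folds of 2.61, 2.52 and 2.69.

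The 114 regions with WDR5A-HA and none of the 3 histone features lay farther from protein-coding genes than regions with them. Their summit was inside a protein-coding gene in 12.3% and within 500 bp of an end in 43.0%, with a median distance of 608 bp. Of the 114, 8 (7.02%) overlapped a tRNA gene and 8 (7.02%) a lncRNA gene. These shares were near the 6.27% and 6.62% of regions with 1 or 2 histone features, beside 3.42% and 4.54% of all E2FA regions. H3K4me1 was listed at 2 of them. TBP was nevertheless listed at 85 of the 114 (74.6%), and Ser5P peaks overlapped 41.2%, 56.1% and 58.8% in libraries 1, 2 and 3, the highest of the 4 classes in every library. Total Pol II peaks overlapped only 8.19 ± 1.83% (n = 3). The same class was small among regions with BTE1, at 41 regions (3.61%), with TBP at 80.5%, a summit in a gene in 9.76% and a median distance of 585 bp. In Ser2P chromatin it held 344 regions (34.8%), with 58.7% in genes and a median distance of 94.5 bp. Its Ser5P share was the highest of the 4 classes in these groups as well, at 63.4 ± 4.88% with BTE1 and 98.6 ± 0.888% in Ser2P chromatin (n = 3). BRG2 and AT5G65400 of the strongest regions belong to this class, as does GL2, where a WDR5A-HA peak was found in 1 library only, at a fold of 2.17. At BRG2 the WDR5A-HA folds were 2.15, 2.65 and 2.01, and the E2FA summit lay 719 bp outside the gene.

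The 199 regions with none of the 4 features had little TBP or Pol II. TBP was listed at 15 (7.54%), Ser5P peaks overlapped 2.01 ± 1.01% and total Pol II 2.68 ± 0.290% (n = 3). H3K4me1 was listed at 10 of them (5.03%), the highest share of the 4 classes, beside 2.05%, 1.39% and 1.75% in the others and 26 members in all. Their summit was inside a gene in 24.1% and within 500 bp of an end in 37.7%, at a median distance of 736 bp, and 14 of the 28 gene-poor members were among them. E2FA was seen in all 3 libraries at 83 of them (41.7%), against 48.8% where all 3 histone features were present. The strongest of these 83 was the region near AT3G32040 (chromosome 3, 13046846 to 13047558), with E2FA folds of 10.8, 5.74 and 8.95, 443020 bp from any Ser2P region. Unlike most of its class, this region was in the TBP list, and it had a BTE1 peak in library 3 at a fold of 2.16.

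**Figure D4:**
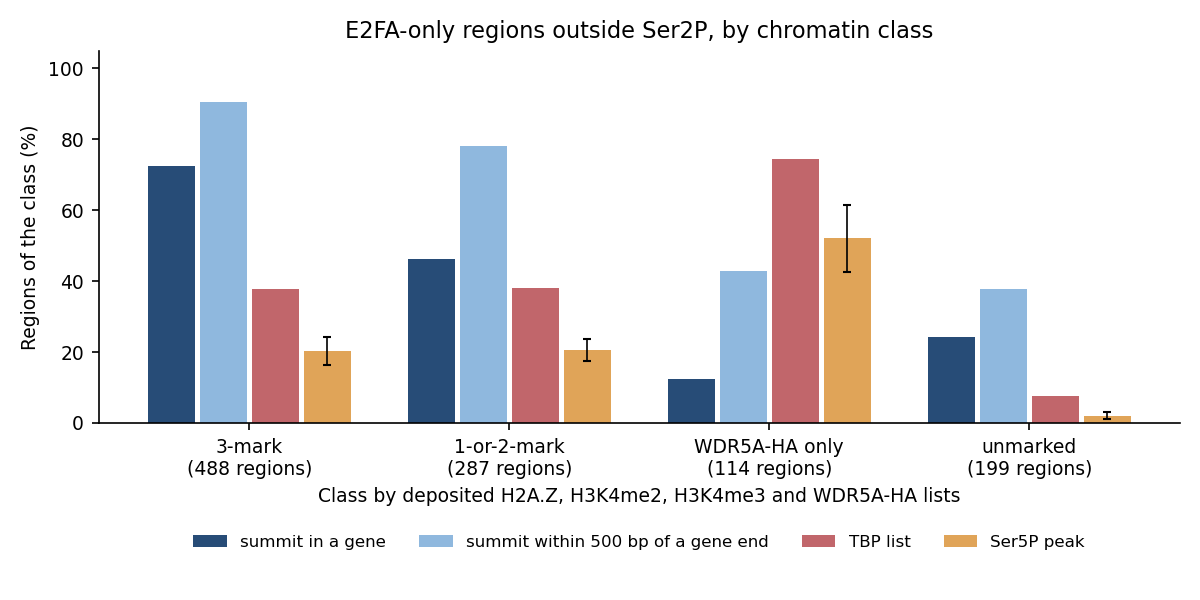
Percent of E2FA-only regions outside Ser2P (vertical axis) with the E2FA summit in a gene, within 500 bp of a gene end, in the TBP list or with a Ser5P peak, by class. Ser5P bars are means of 3 libraries with the SD, and the other bars are single values; TBP reaches 74.6% in the 114 regions with WDR5A-HA alone and 7.54% in the 199 unmarked regions.

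Among the 1088 regions, higher E2FA fold went with less of each mark. The regions were divided into 4 equal bins by mean E2FA fold, with folds of 1.56 to 2.25 in the lowest bin and 3.18 to 14.2 in the highest. H2A.Z peaks overlapped 73.3 ± 1.53% of the lowest bin, 67.2 ± 0.212% of the second, 66.9% of the third and 64.2 ± 1.12% of the highest (mean ± SD, n = 3). H3K4me3 gave 62.1 ± 0.368%, 53.7 ± 0.637%, 53.3 ± 0.973% and 48.8 ± 0.765% in the same order, and WDR5A-HA 60.2 ± 2.15%, 52.8 ± 1.70%, 49.3 ± 3.84% and 45.8 ± 1.81%. The lowest and the highest bin differed by more than the library spread for each of these. Summits inside a gene made up 55.1%, 56.6%, 51.8% and 38.2% of the bins. A BTE1 peak in any single library went the other way, at 14.7%, 18.8%, 25.7% and 32.7%. Peaks in all 3 E2FA libraries made up 20.6% of the lowest bin and 82.0% of the highest. The median width was 445.5, 430.5, 430 and 502 bp from the lowest bin to the highest, and the part of width was not tested. Since the bins rest on E2FA, no test was made.

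**Figure D5:**
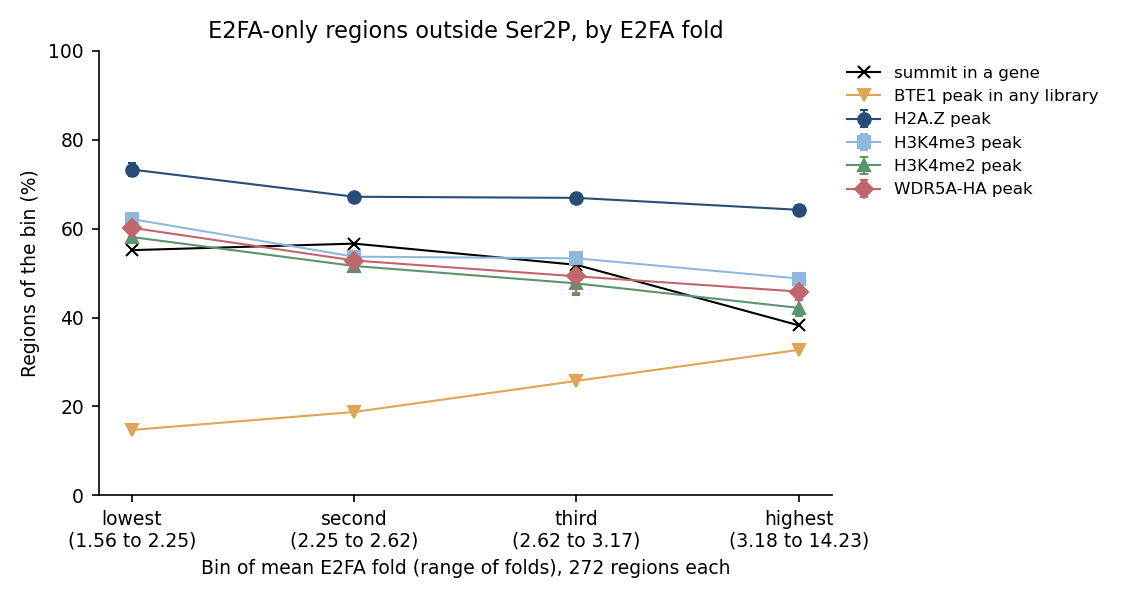
Percent of regions (vertical axis) with a peak of each feature or with the E2FA summit in a gene, by bin of mean E2FA fold (horizontal axis, 4 bins of equal size of the E2FA-only regions outside Ser2P). Points of H2A.Z, H3K4me3, H3K4me2 and WDR5A-HA are means of 3 libraries with the SD; H2A.Z falls to 64.2% in the highest bin and single-library BTE1 peaks reach 32.7%.

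The genes beside the 1088 regions had Ser2P elsewhere in their bodies about as often as all genes. A member lay within 500 bp of an end of 1243 protein-coding genes, and 575 of these (46.3%) had a Ser2P region somewhere in the gene body, against 48.7% of all 27444 genes. For genes beside E2FA-only regions in Ser2P chromatin the share was 95.0%. Within 500 bp of either end, 607 of the 1243 genes (48.8%) had a Ser2P region and 61 (4.91%) a BTE1 region. The shares of all 27444 genes with such a region at an end were not counted, so these values have no background beside them. Taken by member, the nearest gene of 396 of the 790 regions at gene ends (50.1%) had Ser2P in its body. That share was 57.0% where all 3 histone features were present, 48.2% with 1 or 2, 40.8% with WDR5A-HA alone and 21.3% with none. These shares use the Ser2P list that chose the regions and are a description.

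A set of 588 genes had a member at an end and neither Ser2P nor BTE1 at either end. They were set beside 11345 genes with no E2FA, Ser2P or BTE1 at either end, over 3 libraries, as a description. H3K4me3 peaks were found at 71.2 ± 0.547% of the 588 genes and at 35.4 ± 0.527% of the 11345. H3K4me2 was at 78.2 ± 1.57% and 41.6% to 43.6%, H2A.Z at 91.8 ± 0.450% and 68.4 ± 1.11%, and WDR5A-HA at 59.4 ± 3.06% and 27.1 ± 1.89%. Ser5P was at 25.4 ± 5.01% and 9.95 ± 2.09%, total Pol II at 13.6 ± 2.06% and 8.25 ± 1.67%. For all of these the members' genes were higher in every library. Over all 27444 genes, H3K4me3 was at 64.5 ± 0.397%, H3K4me2 at 63.5 ± 1.16%, H2A.Z at 82.0 ± 0.728% and WDR5A-HA at 57.4 ± 2.17%. The WDR5A-HA share of the 588 genes, 56.29% to 62.41% by library, thus overlapped the 54.95% to 59.16% of all genes. Ser5P was at 51.3 ± 2.65% and total Pol II at 50.9 ± 1.5% of all genes. The 588 genes were chosen without Ser2P at their ends and all genes were not, so a lower share of Ser5P or total Pol II follows from the choice.

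A small group of members lay on tRNA genes. Of the 1088 regions 50 (4.60%) overlapped 51 of 625 tRNA genes, against 41 regions (4.15%) in Ser2P chromatin and 19 (1.67%) with BTE1, beside 3.42% of all E2FA regions. TBP was listed at 33 of these 50 (66.0%) and at 34.7% of the other members. WDR5A-HA was listed at 82.0% and 51.7%, and Ser5P peaks overlapped 36.7 ± 7.57% and 19.6 ± 3.57% (n = 3). The E2FA fold had library medians of 2.65, 2.42 and 2.64 at tRNA genes, against 2.69, 2.42 and 2.81 at the other members. H2A.Z was listed at 72.0% of members on tRNA genes, against 68.9% of the others. Regions on lncRNA genes numbered 54 (4.96%), beside 4.54% of all E2FA regions.

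The edge of the definition rested on a few bases for some regions. The 3 members nearest to a Ser2P region lay 3, 6 and 7 bp from one, near AT2G31390, AT4G16765 and TTA2 (AT3G63500), and had mean E2FA folds of 2.80, 2.27 and, at TTA2, 2.34 and 2.06 in libraries 1 and 3. The 3 E2FA-only regions that just overlapped Ser2P shared 8, 17 and 23 bp with it, near AT5G17280, DGAT3 (AT1G48300), a diacylglycerol acyltransferase gene, and G6PD4 (AT1G09420), a glucose-6-phosphate dehydrogenase gene, and had mean folds of 3.72, 2.69 and 2.97. TTA2, just inside, had Ser5P folds of 2.71, 3.01 and 2.63, and G6PD4, just outside, 2.69, 2.42 and 2.31.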

How the data were processed

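Chromatin immunoprecipitation sequencing of 30 wild-type libraries was used, 3 for each of 10 features, with 11 lists deposited for the whole series. Per the submitters' processing notes, fastp, Bowtie2 2.3.3, MACS2 2.2.5 and TAIR10 were used. The control used with MACS2 was not stated in the labels or headers used here. Each deposited library list gives, per peak, a score, a fold enrichment, −log10 p-value and −log10 q-value computed by the authors' peak caller. The deposited peak names and values show a p-value limit of 0.01 for E2FA and a q-value limit of 0.05 for the other features. The deposited lists of the whole series hold positions only. Each share is the percentage of regions overlapped by at least 1 bp.

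Gene names and bounds came from RefSeq TAIR10.1, which gives no strand here, so the planned gene start became either gene end (500 bp to each side). No sequence was available for motifs or promoters. The 10 mark shares were compared with exact two-sided permutation tests and Benjamini-Hochberg adjustment. Tests were also planned for 4 position shares, which are given as description because E2FA and Ser2P chose the regions. Both shares of a comparison come from the same libraries, so sign flips within libraries were the paired alternative. Overlap and test code was tested on simulated data. Named regions were the 12 with the highest mean fold and a peak in all 3 E2FA libraries, list genes (14 lists, 284 genes) beside a member, and 3 regions on each side of the rule's edge. The members, lists and classes were chosen with earlier results of these data known. Alternatives covered overlap, peak score, E2FA recurrence, distance, gene-poor bins, window and left-out replicates. Mean folds are over the libraries with a peak. Python 3.11.15, numpy 2.4.6, pandas 2.3.3, scipy 1.17.1 and matplotlib 3.10.9 were used.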

Additional observations from a re-analysis of the deposited data

How the results depend on the processing

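The 14 differences, 10 in marks and 4 in position, were recomputed 150 times in all, and 144 kept their direction, 21 of them at a size over 1.5 times larger or smaller. The 6 that reversed, in percentage points for E2FA-only regions outside Ser2P minus regions with BTE1, were as follows. With peaks covering at least 0.5 of the region they were 0.863 for H3K4me1 and 7.99 for WDR5A-HA, whose libraries then no longer overlapped. At the midpoint of the region they were 0.833 for H3K4me1 and 3.20 for WDR5A-HA. With peaks at or above their library's median score H3K4me3 gave 5.52, and with E2FA in all 3 libraries WDR5A-HA gave 0.406. The cause was not tested. Pairing each library with itself as a replicate block left every difference as it was, for example 30.0 points for H2A.Z against regions in Ser2P chromatin, with p = 0.25 by exact sign flips, the smallest that 3 libraries allow. Leaving out 1 replicate kept all directions. The share of E2FA summits near a gene end differed from regions in Ser2P chromatin by -9.19 points in a 1000 bp window and by -18.2 in a 250 bp window. Members at least 500 bp from BTE1 and Ser2P, or free of their peaks in any library, gave the same directions. Peak lists hold no read totals, so weak peaks missed for lack of depth cannot be counted.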
